A study of Mus musculus with 6 samples.

Results

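Skeletal muscle genes were measured in cultures labelled as primary fibro-adipogenic progenitors, the mesenchymal cells that reside between muscle fibres and can give rise to fibroblasts and adipocytes. The 36 genes were taken from a list of myogenic regulators, fusion genes and contractile proteins, out of 41388 genes in the count table. Of these, 35 were found by symbol, and Mymk was found by its Ensembl identifier under the older symbol Tmem8c. The cultures were primary cells from the muscle of wild-type male mice, grown with 10% serum and human FGF. Vehicle cells (3 libraries) and cells given 500 nM prostaglandin E2 (PGE2; 3 libraries) were dosed once per day for 2 days, and polyadenylated RNA was sequenced. The labels leave unstated if libraries of a group were separate mice or cultures, and the spread behind every p-value may thus be technical.

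In skeletal muscle, resident stem cells called satellite cells express the transcription factor Pax7, become myoblasts under Myf5 and Myod1, and differentiate under Myog together with Mef2 factors. Differentiating myoblasts leave the cell cycle, fuse through membrane proteins such as myomaker, and assemble sarcomeres from myosin, actin, troponin, titin and nebulin, with embryonic and perinatal myosins made before the adult forms. Fibro-adipogenic progenitors do not normally follow this programme, but they are isolated from the same tissue as satellite cells. The MyoD family binds the E-box, CANNTG, and Mef2 factors bind an AT-rich site.

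The sequence just before the start of 4 of these genes is shown because it holds the motif that the regulators among them are known to bind. The windows are the 250 bases before the RefSeq transcript start (build GRCm38.p6), written in the direction of transcription, and capitals mark every CANNTG. They lie at chr1:134289754-134290003 (plus strand) for Myog, chr2:73580339-73580588 (minus strand) for Chrna1, chr1:135836084-135836333 (plus strand) for Tnnt2 and chr11:67078050-67078299 (plus strand) for Myh3.
Myog: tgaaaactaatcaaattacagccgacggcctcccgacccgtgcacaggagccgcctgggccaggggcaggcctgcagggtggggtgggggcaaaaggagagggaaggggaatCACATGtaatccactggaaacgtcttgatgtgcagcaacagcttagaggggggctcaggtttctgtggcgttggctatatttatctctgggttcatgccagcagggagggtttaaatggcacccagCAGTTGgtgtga
Chrna1: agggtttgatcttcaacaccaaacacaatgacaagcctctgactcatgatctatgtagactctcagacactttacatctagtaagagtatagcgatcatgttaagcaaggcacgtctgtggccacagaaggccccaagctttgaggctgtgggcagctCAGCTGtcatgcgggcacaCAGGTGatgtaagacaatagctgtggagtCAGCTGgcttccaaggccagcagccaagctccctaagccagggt
Tnnt2: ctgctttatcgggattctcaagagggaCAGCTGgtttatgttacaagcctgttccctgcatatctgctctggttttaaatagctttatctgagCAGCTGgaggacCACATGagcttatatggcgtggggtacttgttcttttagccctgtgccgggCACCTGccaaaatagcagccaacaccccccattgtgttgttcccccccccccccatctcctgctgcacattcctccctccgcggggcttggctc
Myh3: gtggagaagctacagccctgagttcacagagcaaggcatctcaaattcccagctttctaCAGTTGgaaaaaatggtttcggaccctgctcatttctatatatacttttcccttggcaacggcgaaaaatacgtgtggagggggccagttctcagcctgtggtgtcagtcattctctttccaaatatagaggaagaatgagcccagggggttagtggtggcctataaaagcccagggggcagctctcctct
The first base of the E-boxes lay 138 and 12 bases before the start in Myog, and 92, 73 and 44 bases before it in Chrna1. Those in Tnnt2 lay at 223, 157, 145 and 94 bases, and the one in Myh3 at 191 bases. The form CAGCTG, a subset of CANNTG that reads the same on both strands, occurred at 92 and 44 bases in Chrna1 and at 223 and 157 bases in Tnnt2. RefSeq windows were found for 28 of the 36 genes. CANNTG was present in 25 of their 33 windows (75.8%) and in 66.2% of all 32851 windows of that length. CAGCTG was present in 10 of the 33 windows (30.3%) and in 13.0% of all windows. Some windows of the same gene overlap, and those of Tnni1 share the same CAGCTG site. By gene, CAGCTG was present for 9 of the 28. A loose form of the Mef2 site, CTA and TAG with any 4 bases between them, was searched on both strands. It was found in 2 of the 33 windows (6.06%), for 2 of the 28 genes, and in 3.2% of all windows. These matches describe letters in the windows and do not show binding.

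Myogenic RNA was present in every library at very unequal levels. Summed over the 36 genes, it amounted to 605, 217 and 169 CPM (counts scaled to the library total) in vehicle libraries 1, 2 and 3. In PGE2 libraries 1, 2 and 3 the sum was 455, 81.3 and 81.4 CPM. Both libraries numbered 1 therefore stood above the other 4, and the groups overlapped, with means of 330.0 ± 239 and 206 ± 216 CPM (SD, n = 3 each). Within libraries of the same number, vehicle exceeded PGE2 1.33-fold, 2.66-fold and 2.07-fold. Without Myh3, the highest of the 36 by mean vehicle CPM, these ratios were 1.28, 2.46 and 2.03. The levels come from bulk RNA, in which fewer cells of a type and less RNA per cell cannot be told apart.

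**Figure D1:**
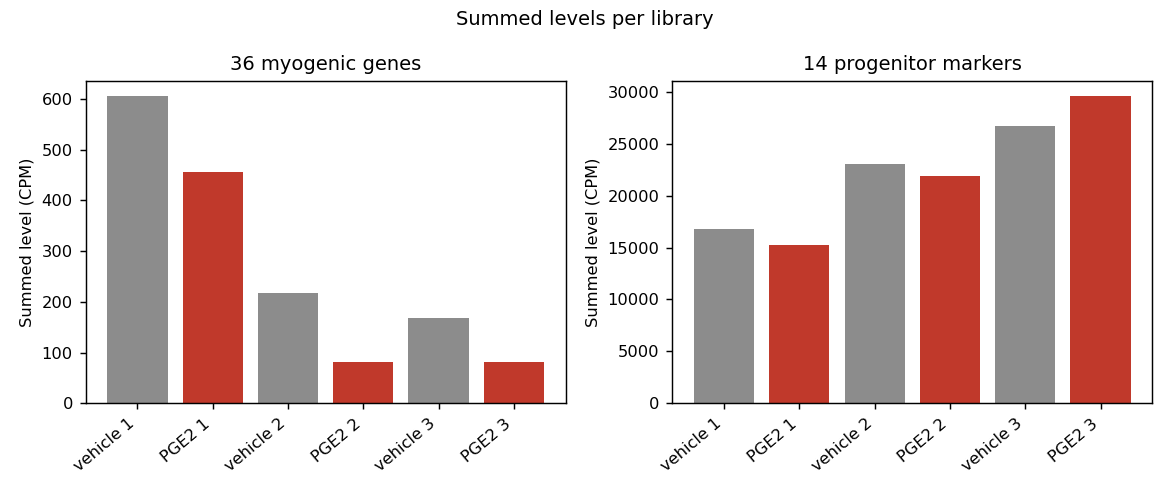
Summed level in CPM (vertical axes, from 0) of the 36 myogenic genes (left) and of 14 fibro-adipogenic progenitor markers (right) in each of the 6 libraries, vehicle in grey and PGE2 in red, 1 bar per library. The libraries numbered 1 are the highest pair for the myogenic genes (605 and 455 CPM) and the lowest pair for the progenitor markers (16740 and 15290 CPM).

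Library totals ranged from 21006044 to 52730962 counts, so that 3 counts corresponded to between 0.0569 and 0.143 CPM. Pdgfra, the surface marker by which fibro-adipogenic progenitors are usually sorted, was at 1140 to 1460 CPM. Summed over the 14 progenitor markers, the level was 16740, 23060 and 26730 CPM in vehicle and 15290, 21920 and 29540 CPM in PGE2 libraries 1 to 3. Markers of other cell types were far lower than these: 569.8 to 699.5 CPM for the 8 pericyte and smooth muscle genes, 19.2 to 47.6 CPM for the 6 endothelial genes and 12.7 to 33.1 CPM for the 6 tendon genes. The 6 Schwann cell genes summed to 8.10 to 9.19 CPM in vehicle and 5.35 to 5.78 CPM in PGE2, with Sox10 at 0 counts in every library. The 6 macrophage and leukocyte genes summed to 8.62 to 9.36 and 11.1 to 12.3 CPM, with Ptprc at 0 counts throughout. Their part in the myogenic result was not tested.

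After the filter on low counts 32 of the 36 genes were tested. Of these, 30 exceeded the filter level of 10 counts at the median total (0.236 CPM) in all 6 libraries. The other 4 genes did not pass the filter. Pax7, the defining satellite cell factor, had 3, 0 and 0 counts in vehicle and 2, 0 and 1 in PGE2. Myf5, which acts beside Myod1 in myoblast commitment, had 5, 0 and 1 counts and then 0, 0 and 1. Myf6, the late member of that family, had 8, 1 and 1 counts and then 0, 4 and 0. Myh2, an adult fast myosin, had 1 count in vehicle library 2 and 0 in all others. These 4 genes thus stayed near or below the 3 counts that serve as the floor here, apart from vehicle library 1 for Myf5 and Myf6 and PGE2 library 2 for Myf6.

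The groups could not be separated without regard to library number. In edgeR's quasi-likelihood test, all 32 fold changes of PGE2 over vehicle were negative, against 50.2% of the 15186 genes tested, with a median of -0.65 on the log2 scale and -0.001 over all genes. None of the 32 passed an adjusted p of 0.05 (adjusted p from 0.206 to 0.882), where 0.132% of all genes were called lower and 0.211% higher, and 1 gene, Mef2c, had an unadjusted p under 0.05. DESeq2 and limma-voom also called none of them, although DESeq2 called 3.27% of all genes lower. The sign depended on vehicle library 1: with it left out, 21 of the 32 fold changes were positive and the median was 0.11. With PGE2 library 1 left out instead, the median was -2.4 and 1 gene fell, against 0.229% of all genes. No gene of the 32 had groups that did not overlap, compared with 25.9% of all genes in either direction.

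The overlap had the same form in nearly every gene. PGE2 libraries 2 and 3 both lay below all 3 vehicle libraries for 32 of 32 genes, against 20.5% of all genes. PGE2 library 1 lay above vehicle libraries 2 and 3 for 30 of 32 genes, against 38.9%; Mef2c and Myh7 were the exceptions. Among the vehicle libraries, library 1 was the highest for 31 of 32 genes (35.2% of all), with Myh4 as the exception. Among the PGE2 libraries, library 1 was the highest for 32 of 32 (36.9% of all). The highest vehicle library exceeded the lowest by a median of 3.62-fold for the 32 genes and 1.24-fold for all genes; in PGE2 these values were 7.63-fold and 1.19-fold.

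Libraries of the same number were treated as pairs because their deviations from the group means correlated across all genes, at 0.621, 0.169 and 0.422. Only number 1 stood out clearly. Vehicle 3 with PGE2 2 gave 0.252 and vehicle 2 with PGE2 3 gave 0.145, so the matching of numbers 2 and 3 is not firm. Within these pairs the myogenic genes were mostly lower under PGE2. They were lower in all 3 pairs for 25 of 32 genes, against 25.5% of all genes. The median difference in log2 CPM was -0.39 in pair 1, -1.55 in pair 2 and -1.33 in pair 3, and 25, 32 and 32 genes were lower. At least 2-fold lower were 2 genes in pair 1, 21 in pair 2 and 22 in pair 3, where 1.75%, 2.65% and 2.37% of all genes were. Because both PGE2 libraries numbered 2 and 3 lay below every vehicle library, exchanging those numbers would turn no direction. The paired fits below were not repeated with the numbers exchanged.

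**Figure D2:**
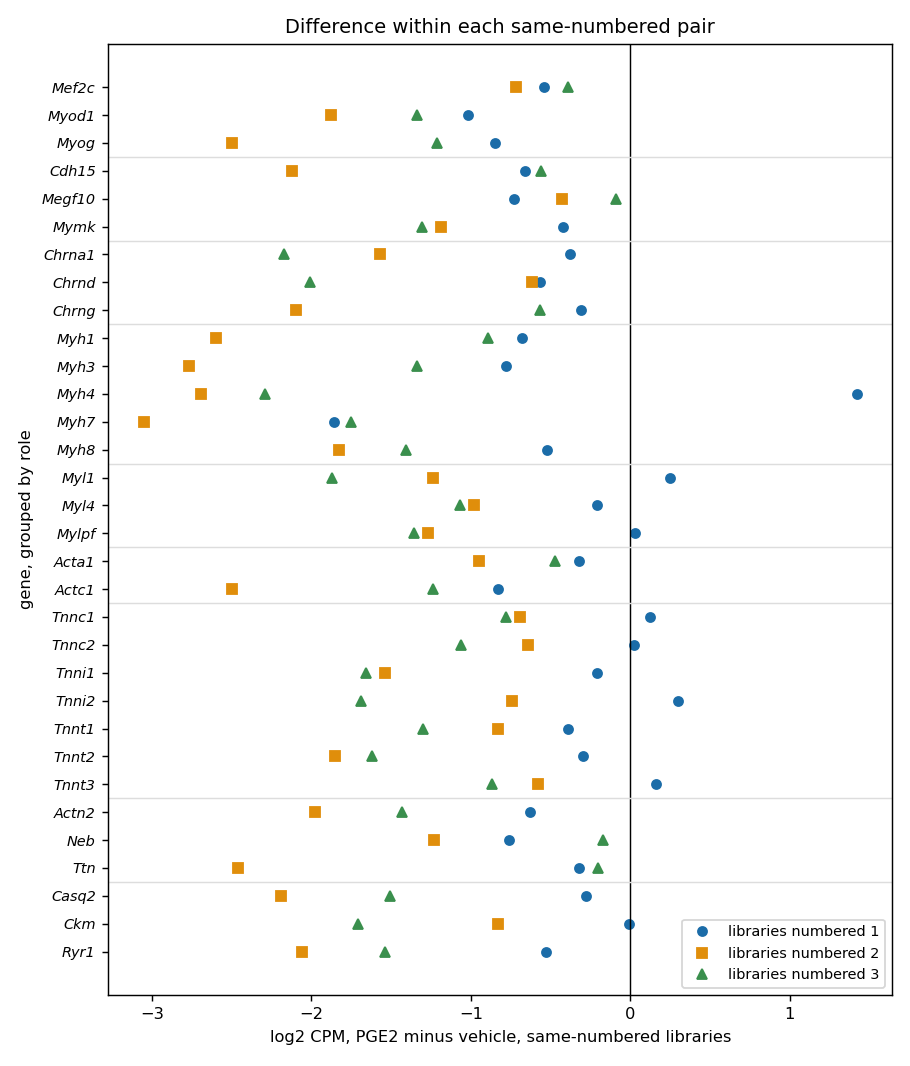
Difference in log2 CPM, PGE2 minus vehicle (horizontal axis), for each of the 32 tested genes (vertical axis, grouped by role), with 1 symbol per same-numbered pair of libraries. Every difference in pairs 2 and 3 is below 0, while in pair 1 the differences run from -1.86 (Myh7) to 1.42 (Myh4) and 7 are above 0.

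In the fit with the library number as a block, here called the paired fit, 14 of the 32 genes fell under PGE2 and 0 rose (edgeR, adjusted p under 0.05), where 7.51% of all genes fell and 6.91% rose. All 32 paired fold changes were negative, against 50.0% of all genes, with a median of -0.84 and a range from -2.41 to -0.39. With the block in DESeq2 18 fell (6.93% of all genes) and in limma-voom 16 (7.61%). DESeq2 added Actc1, Chrna1, Myh3 and Tnni1 to edgeR's 14, and limma-voom added Actc1, Myh1 and Myh3 and left out Cdh15 (adjusted p = 0.0557). Of the 30 genes above the filter level in all libraries, 13 were among the 14. With an added offset for transcript length, 11 fell and 0 rose, against 7.97% and 8.82% of all genes. Both fits called 8 genes, namely Mef2c, Myod1, Cdh15, Mymk, Acta1, Actn2, Myh7 and Tnnt1. In an alternative chosen after seeing the data, both libraries numbered 1 were left out and no block was used. There 16 of the 31 genes still tested fell and 0 rose, against 1.42% of all genes called lower, with a median of -1.49. The direction in that alternative was fixed beforehand, since PGE2 libraries 2 and 3 lay below all vehicle libraries for every tested gene. The paired fit gave 25 of 31 genes without pair 1, 20 of 32 without pair 2 and 8 of 32 without pair 3, where 4.67%, 4.38% and 17.7% of all genes fell. Without pair 1 the direction was fixed beforehand in the same way, as it was in the unblocked test without PGE2 library 1. The values that follow are CPM in libraries 1, 2 and 3 of each group, then the paired log2 fold change with its standard error and edgeR's adjusted p.

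All 3 tested regulators fell in the paired fit, where 7.51% of all genes fell. Myod1 (chr7:46376474-46379099, mm10), which commits cells to the muscle lineage, was at 5.86, 1.43 and 0.913 CPM in vehicle and 2.84, 0.341 and 0.315 CPM in PGE2. Each PGE2 library was below its vehicle partner, and PGE2 library 1 was above vehicle libraries 2 and 3. The paired fold change was -1.35 ± 0.24 (edgeR, adjusted p = 0.00564), and -1.22 ± 1.03 without pairing (adjusted p = 0.549). Myog (chr1:134289989-134292548), which drives differentiation, was at 21.4, 3.76 and 2.11 CPM and then 11.7, 0.607 and 0.839 CPM, the same arrangement over a 10.1-fold spread within vehicle. Its paired fold change was -1.34 ± 0.282 (edgeR, adjusted p = 0.022), and with the length offset it was -1.47 (adjusted p = 0.0665), so the call was lost while the value was not smaller. Mef2c, a cofactor of both that is also made outside muscle, was at 13.9, 10.3 and 9.04 CPM and then 9.43, 6.09 and 6.55 CPM. It varied least between libraries, and here only PGE2 library 1 reached into the vehicle range, between vehicle libraries 2 and 3. Its paired fold change was -0.55 ± 0.112 (edgeR, adjusted p = 0.0113).

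**Figure D3:**
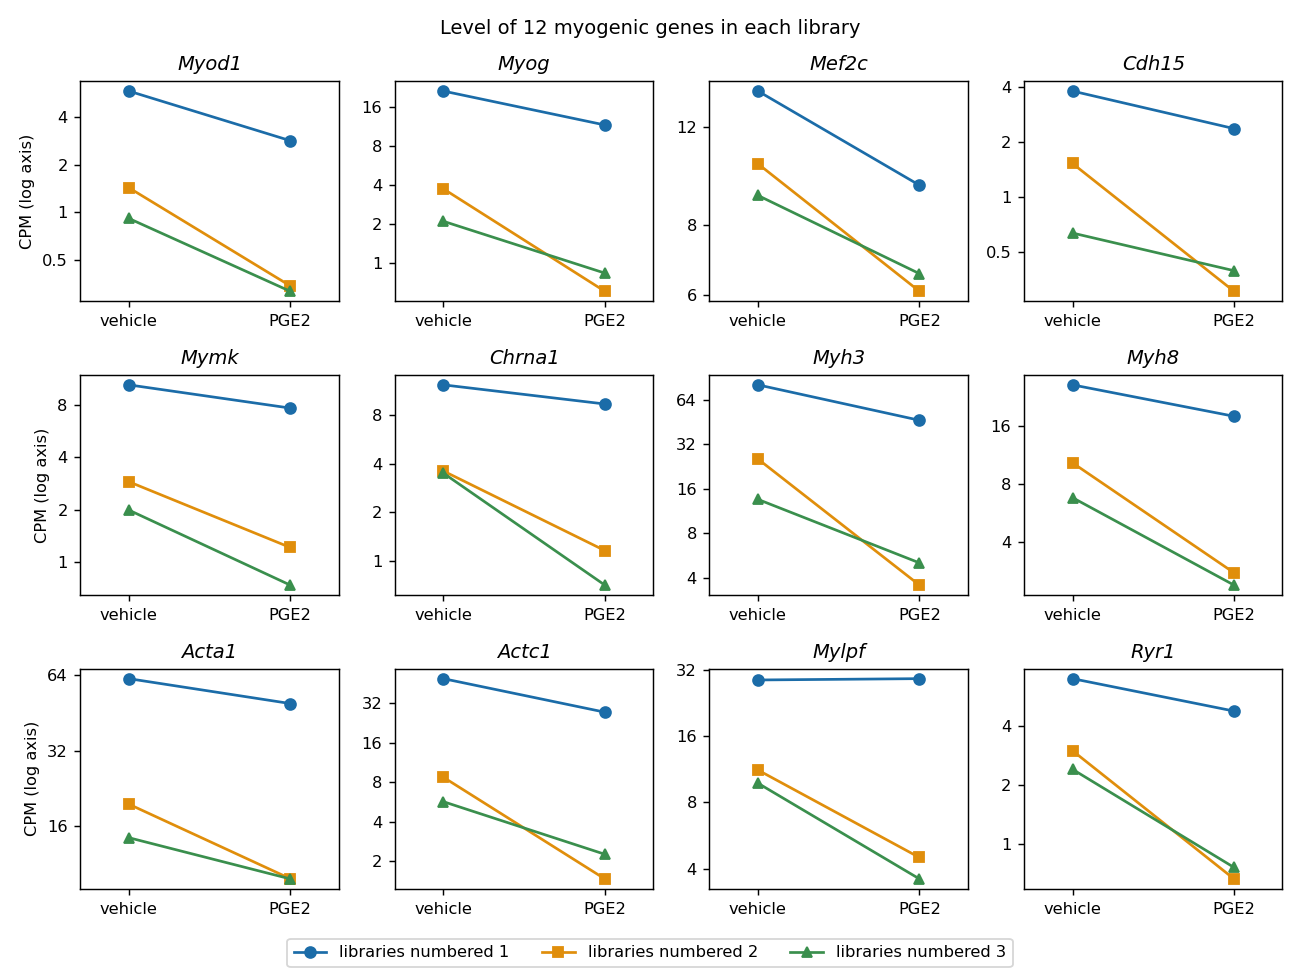
CPM on log axes (vertical, scale differing between panels) of 12 myogenic genes in vehicle and PGE2 libraries (horizontal), with lines joining libraries of the same number and 1 point per library. The libraries numbered 1 lie above the others in most panels, and every line slopes down except that of Mylpf in pair 1 (28.7 and 29.1 CPM).

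Genes of adhesion and fusion also fell in all 3 cases tested (7.51% of all genes). Cdh15, the M-cadherin of satellite cells and myoblasts, was at 3.79, 1.52 and 0.632 CPM in vehicle and 2.36, 0.303 and 0.393 CPM in PGE2 (-1.06 ± 0.312; edgeR, adjusted p = 0.0463). Mymk, the fusion protein myomaker, was at 10.5, 2.90 and 1.99 CPM and then 7.71, 1.21 and 0.734 CPM (-0.86 ± 0.199; edgeR, adjusted p = 0.0193). In both genes the libraries numbered 1 were the highest of their group and the other PGE2 libraries were below all vehicle libraries. Megf10, a receptor of satellite cells, was at 34.6, 14.8 and 14.2 CPM and then 20.6, 10.6 and 12.7 CPM. Its change was among the smallest at -0.43 ± 0.119 (edgeR, adjusted p = 0.0381), and with the length offset it was -0.25 (adjusted p = 0.0749).

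The 3 acetylcholine receptor subunits, which form the receptor at the nerve contact and are made by differentiating myotubes, were lower in every pair but did not pass the paired test. Chrna1 was at 12.4, 3.62 and 3.51 CPM in vehicle and 9.43, 1.16 and 0.708 CPM in PGE2 (-1.15 ± 0.347; edgeR, adjusted p = 0.0833). With the same block Chrna1 passed in DESeq2 (adjusted p = 0.000599) but not in limma-voom (adjusted p = 0.0574). Chrng, the subunit of the fetal receptor, was at 5.60, 2.00 and 1.17 CPM and then 4.45, 0.417 and 0.734 CPM (adjusted p = 0.11). Chrnd, at 3.19, 0.476 and 0.820 CPM and then 2.12, 0.284 and 0.157 CPM, passed only with the length offset (-0.97; edgeR, adjusted p = 0.0448). PGE2 library 1 was above vehicle libraries 2 and 3 for all 3 subunits.

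Among the myosin heavy chains, the motor subunits of the thick filament, 2 of 5 fell in the paired fit (7.51% of all genes). Myh3, the embryonic form, had the highest mean vehicle CPM of the 36 genes. It was at 80.9, 25.5 and 13.6 CPM in vehicle and 46.6, 3.58 and 5.06 CPM in PGE2. Although it was lower in every pair, its change of -1.54 ± 0.52 did not pass in edgeR (adjusted p = 0.195), while with the same block it passed in DESeq2 and limma-voom (adjusted p = 0.0315 and 0.0111). Myh8, the perinatal form, was at 26.0, 10.3 and 6.81 CPM and then 17.9, 2.79 and 2.41 CPM, and fell by 1.17 ± 0.253 on the log2 scale (edgeR, adjusted p = 0.033), though not with the length offset (adjusted p = 0.189). Myh7, the slow and cardiac form, had the largest change among the 32 at -2.41 ± 0.364 (edgeR, adjusted p = 0.00238), on only 127, 28 and 9 counts in vehicle and 36, 6 and 1 counts in PGE2.

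The adult fast myosins were less uniform. Myh1 was at 29.3, 15.5 and 7.47 CPM and then 18.1, 2.45 and 3.8 CPM, with a paired change of -1.31 ± 0.491 (edgeR, adjusted p = 0.203). With the same block Myh1 passed in limma-voom (adjusted p = 0.021) but not in DESeq2 (adjusted p = 0.0899). Myh4 was at 1.38, 1.90 and 2.22 CPM in vehicle and 3.73, 0.247 and 0.393 CPM in PGE2, so that PGE2 was higher by 1.42 on the log2 scale in pair 1 and lower in pairs 2 and 3. Its paired change was -0.78 ± 1.23 (edgeR, adjusted p = 0.733). Myh3, Myh1, Myh4 and Myh8 lie in 1 cluster on chromosome 11 with Myh2, between positions 67078300 and 67308634. In the gene models, 9.73% of the 100-base stretches of Myh1 and 6.61% of those of Myh8 also occur in other genes. For Myh7 this share was 11.2%, shared mainly with Myh6, and for Myh4 it was 3.85%, so reads may have been split between these paralogs.

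The myosin light chains, small subunits bound to the myosin neck, did not share a direction between the libraries numbered 1. There Mylpf was nearly equal, Myl1 was higher in PGE2 and Myl4 was lower. Mylpf was at 28.7, 11.2 and 9.76 CPM in vehicle and 29.1, 4.49 and 3.59 CPM in PGE2, and Myl1 at 24.5, 10.0 and 11.1 CPM and then 28.9, 4.10 and 2.86 CPM. Neither passed the paired test (edgeR, adjusted p = 0.223 and 0.445). In the gene models, 9.36% of the 100-base stretches of Myl1 also occur in another gene, so its reads may have been split. Myl4, the embryonic and atrial light chain, was at 29.7, 11.5 and 10.4 CPM and then 25.4, 5.67 and 4.69 CPM, and fell by 0.70 ± 0.165 on the log2 scale (edgeR, adjusted p = 0.0259), with an adjusted p of 0.0665 under the length offset.

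Of the sarcomeric actins, Acta1 (chr8:123891769-123894751), the form of adult skeletal fibres, fell. It was at 62.1, 19.6 and 14.4 CPM in vehicle and 49.4, 9.88 and 9.86 CPM in PGE2, a change of -0.56 ± 0.115 (edgeR, adjusted p = 0.0118). Actc1, the cardiac actin that is also made in developing muscle, was at 49.2, 8.71 and 5.67 CPM and then 27.3, 1.46 and 2.25 CPM. Its change of -1.38 ± 0.35 was larger but did not pass in edgeR (adjusted p = 0.0792), while with the same block it passed in DESeq2 and limma-voom (adjusted p = 0.0184 and 0.00816). Both genes were lower in each pair, and PGE2 library 1 was above vehicle libraries 2 and 3.

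Of 7 troponins, the calcium sensor of the thin filament, 1 fell in the paired fit and 3 with the length offset. Over all genes, 7.51% and 7.97% fell in these fits. Tnnt1, the slow troponin T, was at 7.53, 2.95 and 2.58 CPM in vehicle and 5.65, 1.59 and 0.970 CPM in PGE2 (-0.77 ± 0.192; edgeR, adjusted p = 0.0252). Tnnc1 and Tnnc2, the slow and fast troponin C, were at 16.9, 7.95 and 6.91 CPM and 11.7, 3.38 and 4.59 CPM in vehicle, and at 18.2, 4.76 and 3.8 CPM and 11.7, 2.09 and 2.07 CPM in PGE2. Both passed only with the length offset (-0.59 and -0.68; edgeR, adjusted p = 0.0342 and 0.0159). Exons of Tnnc2 overlap Ube2c on the opposite strand, which was at 17.7 to 49.4 CPM, and reads of these genes cannot be told apart since the strand setting is not known. Tnnt2, Tnnt3, Tnni1 and Tnni2 had paired changes of -1.10, -0.39, -0.99 and -0.55 and did not pass (edgeR, adjusted p from 0.112 to 0.335). Of these, Tnni1 passed with the same block in DESeq2 (adjusted p = 0.00102) but not in limma-voom (adjusted p = 0.0741).

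Among the giant and cross-linking proteins of the sarcomere, 2 of 3 fell in the paired fit (7.51% of all genes). Actn2, the alpha-actinin of the Z disc, was at 16.1, 5.76 and 3.58 CPM in vehicle and 10.3, 1.38 and 1.23 CPM in PGE2 (-1.23 ± 0.242; edgeR, adjusted p = 0.015). Neb, which encodes nebulin of the thin filament, was at 10.3, 5.14 and 3.14 CPM and then 6.0, 2.11 and 2.65 CPM (-0.73 ± 0.185; edgeR, adjusted p = 0.027), and with the length offset its change was -0.37 (adjusted p = 0.088). Ttn, which encodes titin, was at 7.22, 2.48 and 1.15 CPM and then 5.72, 0.398 and 0.944 CPM and did not pass (adjusted p = 0.263). In Neb and Ttn, PGE2 library 3 lay close to vehicle library 3.

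Of the genes for calcium release and energy, Ryr1 fell. This calcium channel of the sarcoplasmic reticulum was at 7.0, 3.0 and 2.41 CPM in vehicle and 4.78, 0.664 and 0.760 CPM in PGE2 (-1.23 ± 0.28; edgeR, adjusted p = 0.0225), and it did not pass with the length offset (-0.89; adjusted p = 0.106). Casq2, a calcium-storing calsequestrin, was at 10.6, 3.48 and 3.16 CPM and then 8.69, 0.702 and 1.02 CPM (-1.10 ± 0.382; edgeR, adjusted p = 0.121). Ckm, the muscle creatine kinase, was at 3.6, 0.905 and 1.29 CPM and then 3.54, 0.474 and 0.341 CPM (-0.65 ± 0.314; edgeR, adjusted p = 0.19). For Ckm the libraries numbered 1 differed by 1.02-fold only.

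**Figure D4:**
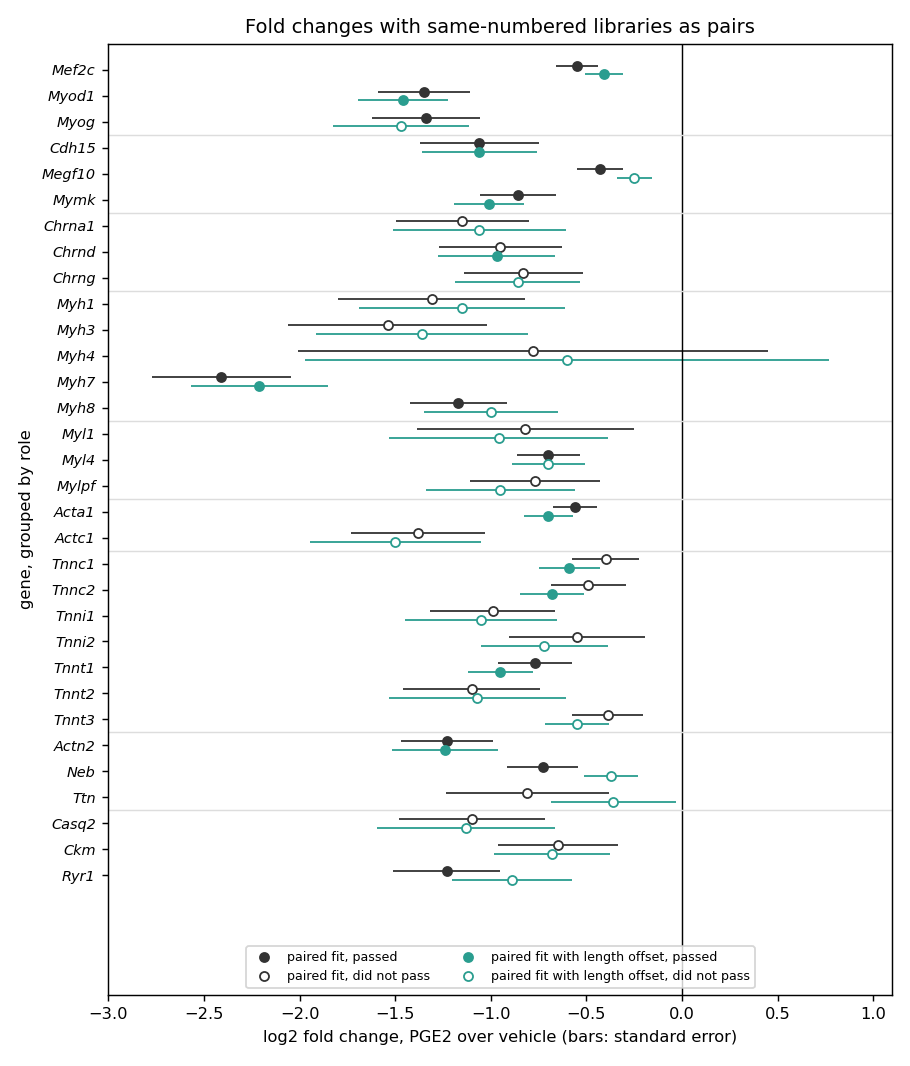
Paired log2 fold change, PGE2 over vehicle (horizontal axis), of the 32 tested genes (vertical axis, grouped by role) without (dark) and with (green) an offset for transcript length. Bars are standard errors and filled points passed an adjusted p of 0.05; all points lie below 0, and 14 dark and 11 green points are filled.

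Divided by transcript length, the levels had a different order. Over the vehicle libraries the mean was highest for Acta1, at 22.1 CPM per kb of the longest transcript, followed by Mylpf at 21.6, Tnnc1 at 14.7, Actc1 at 14.4, Myl1 at 14 and Tnnt3 at 12.9. Myh3 stood at 6.63, Myog at 6.08 and Myod1 at 1.47 CPM per kb, and Ttn was lowest among tested genes at 0.0338. Among the leading 6 genes the order is not firm, since each varied at least 2.15-fold between vehicle libraries.

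Length was also related to the difference in pair 1. The 7 tested genes with the shortest transcripts, of 700 to 1082 bases, included 6 of the 7 genes that were not lower there (Tnni2, Myl1, Tnnt3, Tnnc1, Mylpf and Tnnc2), with a median difference of 0.12. Tnnt1 was the exception at -0.39. Of the other 25 genes, 24 were lower in pair 1, with a median of -0.53, and Myh4 was the exception. Over all genes of any function, the median in pair 1 was 0.29 for the 1501 tested genes that were as short and -0.03 for longer ones. After the length trend of each library was removed, 5 of the 7 short genes and 23 of the 25 others were lower in pair 1, with medians of -0.15 and -0.37. With that adjustment 28 of 32 genes were lower in all 3 pairs, against 26.4% of all genes.

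**Figure D5:**
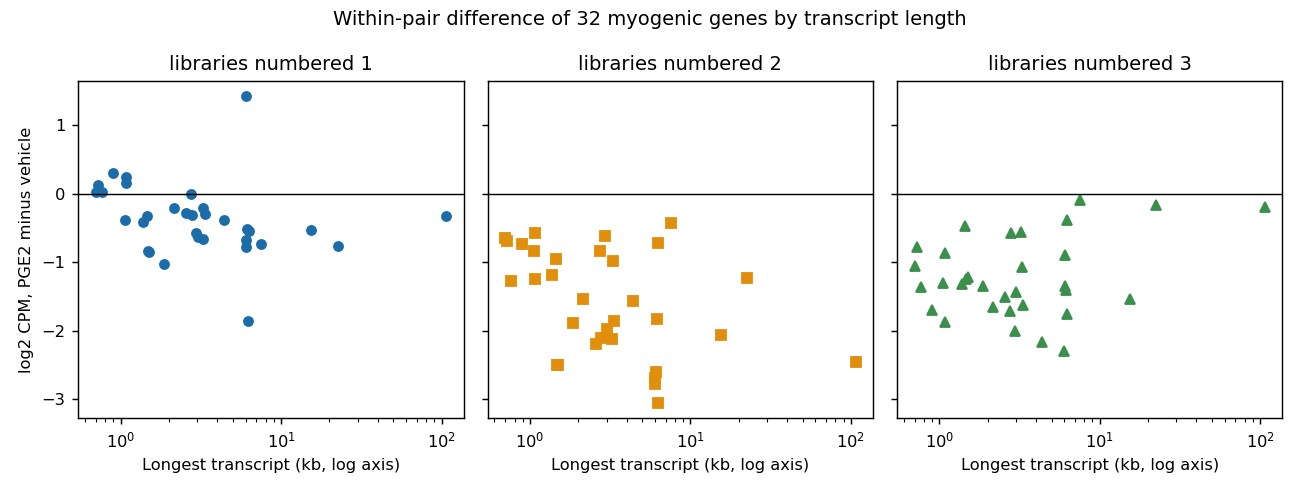
Difference in log2 CPM, PGE2 minus vehicle (vertical axis), against the length of the longest transcript in kb (horizontal log axis) for the 32 tested genes, with 1 panel per same-numbered pair and 1 point per gene. In pair 1 most short genes lie just above 0 and most longer ones below it, while in pairs 2 and 3 all points lie below 0.

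Further muscle genes, from lists that do not include the 36, were lower in part. In the paired fit 6 of 21 tested sarcomere and Z disc genes fell and 0 rose, with a median of -0.75. Over all genes 7.51% fell and 6.91% rose in this fit. Nrap, an organiser of forming myofibrils, was at 3.72, 1.29 and 0.749 CPM in vehicle and 2.03, 0.247 and 0.288 CPM in PGE2 (-1.30 ± 0.296; edgeR, adjusted p = 0.0179). Smyd1, a muscle methyltransferase, was at 4.53, 1.76 and 1.08 CPM and then 2.47, 0.209 and 0.393 CPM (-1.46 ± 0.343; edgeR, adjusted p = 0.0236). Myoz1 and Myot, both of the Z disc, had paired changes of 1.09 and -1.22 and did not pass (edgeR, adjusted p = 0.203 and 0.18). For Nrap and Smyd1, vehicle library 1 was the highest and PGE2 library 1 came next.

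Of 17 tested genes of fusion, membrane and excitation-contraction coupling, 3 fell and 0 rose (7.51% and 6.91% of all genes), with a median of -0.55. They were Srl, Hrc and Cacna1s, which encode sarcalumenin, a calcium-binding protein of the sarcoplasmic reticulum and the voltage sensor of the muscle calcium channel. Srl was at 20.9, 9.24 and 7.61 CPM in vehicle and 12.9, 4.17 and 5.11 CPM in PGE2 (-0.75 ± 0.128; edgeR, adjusted p = 0.0045). Hrc and Cacna1s changed by -1.25 and -1.50 (edgeR, adjusted p = 0.0123 and 0.0294), and Cacna1s did not pass with the length offset (adjusted p = 0.0992). Casq1, the fast-fibre calsequestrin, had a change of -0.80 (adjusted p = 0.148). Muscle metabolism gave 2 lower genes of 5 tested: Pygm, the glycogen phosphorylase of muscle, at -0.93 (edgeR, adjusted p = 0.0163), and Mb, myoglobin, at -0.71 (adjusted p = 0.0387). Pgam2 and Phkg1, of glycolysis and glycogen breakdown, had values of -0.28 and 0.35 and did not pass.

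Other lists covered the early myogenic lineage and the nerve contact. Of 11 tested satellite cell and myoblast genes beyond the 36, 2 fell and 0 rose (7.51% and 6.91% of all genes), with a median of -0.23. Des, which encodes the intermediate filament protein desmin and is named here with its values known, was at 31.3, 12.5 and 11.4 CPM in vehicle and 24.1, 4.95 and 3.64 CPM in PGE2. It fell by 1.0 ± 0.239 on the log2 scale (edgeR, adjusted p = 0.0452), a call lost with the length offset (-1.01; adjusted p = 0.157). Six4, Msc and Cdon had values of -0.37, -0.97 and -0.23 and did not pass. None of 5 tested neuromuscular junction genes passed, in a range that included Musk at 0.18, Rapsn at 0.29, Chrnb1 at -0.15 and Dok7 at -1.09. The unblocked test called 0 genes in each of these 5 lists. Summed levels of the satellite cell and myoblast list were 198.2 to 238.6 CPM in vehicle and 184.9 to 198.0 CPM in PGE2, with no excess in the libraries numbered 1. The sarcomere and Z disc list, in contrast, summed to 86.6, 35.4 and 31.9 CPM in vehicle and 67.8, 15.4 and 19.8 CPM in PGE2. Whether the lists differ from each other was not tested.

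Marker genes of other cells moved in both directions in the same paired fit. Of the 14 progenitor markers, 4 rose and 3 fell, where 6.91% of all genes rose and 7.51% fell. The stem cell antigen gene Ly6a rose by 0.62 and Thy1 by 0.73 on the log2 scale (edgeR, adjusted p = 0.00212 and 0.000439), and Cd34 and Gsn changed by -0.59 and -0.44 (adjusted p = 0.000748 and 0.0158). Of the 8 pericyte and smooth muscle genes 3 fell, namely Cspg4 at -0.84, Rgs5 at -0.95 and Notch3 at -0.47 (edgeR, adjusted p = 0.000711, 0.0304 and 0.0129). Rgs5 and Notch3 did not pass with the length offset (edgeR, adjusted p = 0.0542 and 0.0828), and Kcnj8 had a value of 0.54 (adjusted p = 0.282). Cdh19 and S100b of the Schwann cell list fell by 1.06 and 0.63 on the log2 scale (edgeR, adjusted p = 0.0142 and 0.0291), whereas Mbp did not pass. Tek of the endothelial list and Thbs4 of the tendon list changed by -0.42 and -0.47 (edgeR, adjusted p = 0.0254 and 0.0279), and Csf1r and Cd14 of the macrophage list rose by 0.79 and 0.44 (adjusted p = 0.0392 and 0.0357), of which Cd14 did not pass with the length offset (0.31; adjusted p = 0.0684). Cdh5, Kdr, Emcn, Cd68, Scx, Tnmd and Fmod did not pass. The pericyte, Schwann cell, endothelial and tendon sums were not highest in both libraries numbered 1. The macrophage sum was, by little: 9.36, 8.62 and 9.34 CPM in vehicle and 12.3, 12 and 11.1 CPM in PGE2. The pericyte sum was mostly Pdgfrb, at 503 to 589 CPM, and single genes of that list differed from it. Mcam was at 16.1, 6.14 and 5.27 CPM in vehicle and 15.1, 9.37 and 5.9 CPM in PGE2. Vehicle library 1 was the highest of vehicle for 3 of the 8 pericyte and smooth muscle genes.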

How the data were processed

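Polyadenylated RNA of 3 vehicle and 3 PGE2 libraries was sequenced as paired reads of 100 bases, per the labels' protocols. The authors deposited whole-number counts per gene. Per the submitters' processing notes, the genome build was mm10. Aligner, counter, strand setting and annotation: not given in the sources used here. The members and gene lists were chosen with earlier results of these data known.

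Counts were fitted over all genes kept by filterByExpr (15186) with edgeR 4.0.16 in R 4.3.3: TMM scaling, robust quasi-likelihood test, Benjamini-Hochberg adjustment, threshold 0.05. Errors of fold changes are standard errors. Pair differences used log2 CPM with a prior count of 2. The test was checked on simulated counts. Alternatives were other scalings and filters, DESeq2 1.42.0, limma-voom (limma 3.58.1), the replicate number as a block, a length offset (lowess, span 0.3, on log2 of the longest GENCODE transcript, per library) and leaving out libraries.

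Labels give both groups the same numbers without stating what a number shares. Deviations from the group means of log2 CPM correlated at 0.621, 0.169 and 0.422 for numbers 1, 2 and 3, each over the limit of 0.1, so the numbers were treated as pairs, from the data and not the labels; vehicle 3 with PGE2 2 gave 0.252 and vehicle 2 with PGE2 3 gave 0.145. The pairing was decided with earlier counts of calls known.

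Named genes are all 36 members and, of each of the 11 other lists, up to 4 with the smallest unblocked p; Pdgfra, Ube2c, Myh6 and Des were added with their values known, and some genes that the rule names are not reported here. Positions come from GENCODE on mm10, promoters from RefSeq.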

Additional observations from a re-analysis of the deposited data

How the results depend on the processing

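The number of genes called among all genes depended strongly on the fit. It was 52 in the unblocked edgeR test (3049 genes at an unadjusted p under 0.05), 285 without a filter, 932 with DESeq2, 13 with limma-voom, 15 with the length offset and 0 at an adjusted p of 0.01. With the replicate block as pairing it was 2189, or 2549 with the length offset, 1934 in DESeq2 and 2174 in limma-voom. Leaving out single libraries or pairs gave 0 to 5097. The unblocked count was 0 without vehicle 2, vehicle 3, PGE2 2 or PGE2 3 (1871, 3697, 1494 and 2597 genes at an unadjusted p under 0.05), 30 without vehicle 1 and 120 without PGE2 1. Scaling by totals alone moved the median of all genes by -0.044.

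Of the 36 myogenic genes, none was called in the unblocked test (1 at an unadjusted p under 0.05), and the count was 14 with the replicate block, 11 with the length offset added, 18 with the block in DESeq2 and 16 with it in limma-voom. Leaving out libraries or pairs gave 0 to 25. The paired count was 25 of 31 without pair 1 (4.67% of all genes called lower), 20 without pair 2 (4.38%) and 8 without pair 3 (17.7%). Without pair 1 the direction was fixed beforehand, since PGE2 libraries 2 and 3 lay below all vehicle libraries for every tested gene. Without both libraries numbered 1, an alternative chosen after seeing the data, 495 genes in all and 16 myogenic genes were called.

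All tested myogenic genes were negative in each setting that left out no single library and in each that left out a pair. Positive values occurred without vehicle 1 (21 genes), PGE2 2 (7 genes) or PGE2 3 (8 genes), none of them called. Over the settings that left out 1 library without the block or 1 pair with it, the log2 fold changes that turned sign ran as follows: Myod1 from -3.0 to 0.04, Myog from -3.61 to 0.61, Myh4 from -2.64 to 0.19, Acta1 from -1.64 to 0.46, Actc1 from -3.47 to 0.54, Ckm from -2.19 to 0.39, Tnnt1 from -1.70 to 0.01, Tnnt2 from -2.72 to 0.28, Tnnt3 from -1.15 to 0.20, Tnni1 from -2.42 to 0.21, Tnni2 from -1.67 to 0.04, Tnnc1 from -1.25 to 0.28, Tnnc2 from -1.61 to 0.41, Mymk from -2.32 to 0.43, Chrna1 from -2.73 to 0.09, Chrnd from -2.69 to 0.36, Chrng from -2.31 to 0.28, Myl1 from -2.06 to 0.19, Mylpf from -1.97 to 0.25, Myl4 from -1.67 to 0.14, Ttn from -2.41 to 0.43, Casq2 from -2.70 to 0.08 and Megf10 from -0.80 to 0.04. The cause was not tested. Pax7, Myf5, Myf6 and Myh2 stood at 0 to 8 counts per library and did not pass the filter. The part of sequencing depth in these low counts was not tested.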
